A study of Arabidopsis thaliana with 33 samples.

Results

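The genes described here are 10 genes of red-light sensing and of the light-dependent step of chlorophyll synthesis in Arabidopsis thaliana. They are 2 phytochromes (PHYA, AT1G09570, and PHYB, AT2G18790), 4 phytochrome-interacting factors (PIF1, AT2G20180; PIF3, AT1G09530; PIF4, AT2G43010; PIF5, AT3G59060), the transcription factor gene HY5 (AT5G11260) and 3 protochlorophyllide oxidoreductases (PORA, AT5G54190; PORB, AT4G27440; PORC, AT1G03630). They were set by name, with earlier results of these data known and with no threshold on a measured value, and all 10 were listed in each of the 3 RNA-seq comparisons, which together list 23044 genes. No member was absent from any table.

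Phytochromes are photoreceptors that switch to an active form in red light and enter the nucleus. There they bind PIFs, basic helix-loop-helix factors that promote elongation and hold back greening in darkness or shade, and most PIFs are then degraded. HY5, a basic leucine zipper factor, accumulates in light and promotes photomorphogenesis. POR enzymes use light to reduce protochlorophyllide to chlorophyllide, the step at which chlorophyll synthesis in flowering plants depends on light.

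The study compared shoots staged at 4 to 5 leaves from soil-grown plants kept in 16 h light and 8 h dark. The genotypes were WT, arp6-1 (a mutant in ARP6, a subunit of the SWR1 complex, which exchanges H2A for the variant H2A.Z), brm-1 (a mutant in BRM, a SWI/SNF chromatin remodelling ATPase) and the double mutant arp6-1;brm-1, called arp6, brm and arp6;brm below. RNA was taken from nuclei, so that levels are those of nuclear RNA, with 3 libraries per genotype. H2A.Z ChIP-seq had 2 libraries each of WT, arp6 and brm, and the series has no such library of arp6;brm. MNase-seq, which reads the DNA that nucleosomes protect, was compared as 1 pooled data set per genotype, and DNA of 50 pooled arp6 plants was searched by the authors for deletions. Each mutant is 1 allele, and all 3 comparisons of a data type share the same WT libraries, so their results are not independent of each other.

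The labels were checked with the mutated genes. In the authors' deposited table, ARP6 was lower by edgeR in arp6 (log2 fold change -5.73, adjusted p = 1.54e-44) and BRM in brm (log2 fold change -5.64, adjusted p = 4.2e-94). Both were lower in arp6;brm, with log2 fold changes of -5.60 and -8.87 per the authors' deposited table. The 3 shoot markers had an average log2 CPM of 10.14 to 12.30 per the authors' deposited tables. Of 6 root markers, 2 to 4 were listed, none above -1.08 in average log2 CPM, and 3 flower markers stayed at or below -3.14 per the authors' deposited tables. Reads that could not be given to a single gene took 66.9% to 70.7% of the counts. In whole shoots, fewer cells of a type and less RNA per cell cannot be told apart.

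A gene was called changed at an edgeR adjusted p under 0.05 over its whole table. In arp6, 2 of the 10 genes were called, PIF1 higher and PIF4 lower, beside 6.03% of all 22046 genes per the authors' deposited table (3.01% higher and 3.02% lower). In brm, 2 of 10 were called, PHYA and PORA, both higher, beside 13.8% of 21925 genes per the authors' deposited table (7.62% higher and 6.14% lower). In arp6;brm, 2 of 10 were called, PORA higher and PIF5 lower, beside 13.3% of 22352 genes per the authors' deposited table (6.16% higher and 7.14% lower). With 2 calls among 10 genes in each table, these counts are not far from the share of all genes in brm and arp6;brm. In arp6 that share was 6.03%, and the 2 calls, neither of 2-fold or more, were not tested against it. The median log2 fold change of the 10 genes was -0.07 in arp6, -0.15 in brm and, in the double mutant, 0.31, beside -0.02, -0.02 and 0.01 over all genes of the authors' deposited tables.

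**Figure D1:**
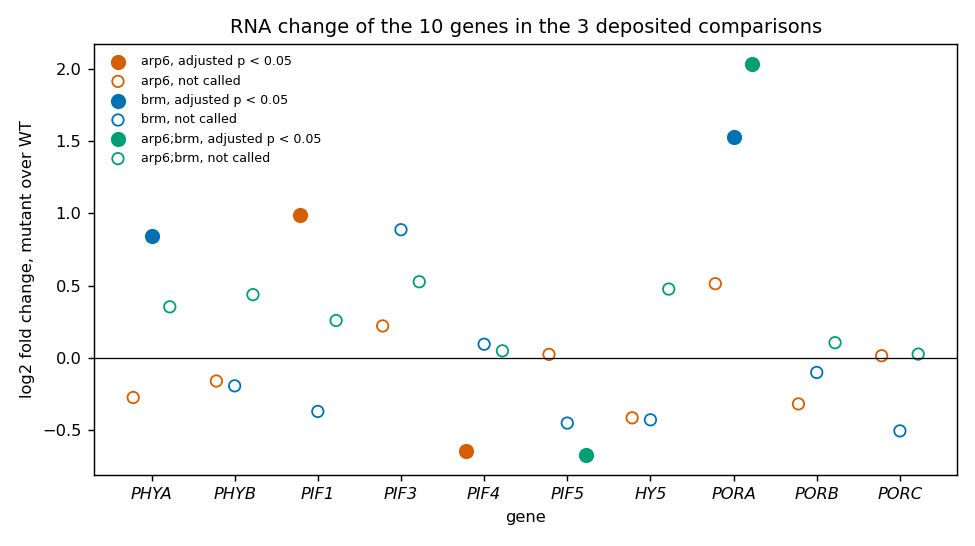
Log2 fold change of nuclear RNA, mutant over WT (vertical axis), for the 10 genes in arp6, brm and arp6;brm, from the authors' deposited tables. Filled points passed an adjusted p of 0.05, and PORA is filled in both brm and arp6;brm, at 1.53 and 2.04.

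The tables hold no value per library. Group levels, in CPM (counts scaled to a fixed total) of reads assigned to genes, were therefore computed from the average log2 CPM and the log2 fold change of each of the authors' deposited tables, and they carry no error of their own. The 3 WT levels that the tables give for a member differ by at most 1.91%. Levels are compared within a gene and not between genes, since they are not per length.

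PHYA, the light-labile phytochrome that senses far-red light, was higher in brm. Its level computed from the authors' deposited tables was 51.6 CPM in WT and 92.7 in brm, against 42.7 in arp6 and 67.1 in arp6;brm. The authors' deposited table gave PHYA in brm an average log2 CPM of 4.47 and a log2 fold change of 0.84 (edgeR adjusted p = 0.000607). It was not called in arp6 (average log2 CPM 3.97, log2 fold change -0.27, edgeR adjusted p = 0.582) or in arp6;brm (4.14, 0.35 and 0.205) per the authors' deposited tables.

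PHYB, the main red-light phytochrome of green plants, was called in no comparison. Its computed level was 55.7 CPM in WT, 49.9 in arp6, 48.8 in brm and, in the double mutant, 76.8, from the authors' deposited tables. The lowest of its edgeR adjusted p-values was that in arp6;brm (0.0574), with a log2 fold change of 0.44 and an average log2 CPM of 4.29 per the authors' deposited table. That p became 0.0443 when p-values were adjusted again with genes under an average log2 CPM of 1 left out. In arp6 and brm the log2 fold changes were -0.16 and -0.19 at average log2 CPM of 4.13 and 4.01, with edgeR adjusted p of 0.739 and 0.658, per the authors' deposited tables.

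PIF1, which represses seed germination and chlorophyll synthesis in darkness, was higher in arp6. Its level computed from the authors' deposited tables was 34.0 CPM in WT, 67.4 in arp6, 26.4 in brm and, in the double mutant, 41.4. In arp6 the fold was 1.98, at a log2 fold change of 0.99 and an average log2 CPM of 4.07 per the authors' deposited table (edgeR adjusted p = 7.04e-05). In brm (average log2 CPM 3.22, log2 fold change -0.37, edgeR adjusted p = 0.422) and in arp6;brm (3.48, 0.26 and 0.480) PIF1 was not called per the authors' deposited tables. The double mutant thus carries the arp6-1 allele without a called rise of PIF1, and arp6 was not tested against arp6;brm. In arp6 the MNase-seq signal over PIF1 was higher as well, with a median of 370 against 162 in WT, and the part of a difference in DNA content in the RNA result was not tested.

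PIF4, a factor of growth in warmth and shade, was lower in arp6. Its level computed from the authors' deposited tables was 150.5 CPM in WT and 96.2 in arp6, with 161 in brm and, in the double mutant, 158.6. The log2 fold change in arp6 was -0.65 at an average log2 CPM of 5.36 per the authors' deposited table (edgeR adjusted p = 0.0275). In brm (average log2 CPM 5.58, log2 fold change 0.10, edgeR adjusted p = 0.841) and arp6;brm (5.52, 0.05 and 0.909) PIF4 was not called per the authors' deposited tables.

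PIF5, a close relative of PIF4 that acts with it in elongation growth, was lower in arp6;brm. Its computed level fell from 132.2 CPM in WT to 83.0 in arp6;brm, a WT level 1.59 times that of the double mutant, with 132.1 in arp6 and 95.2 in brm, from the authors' deposited tables. In arp6;brm the authors' deposited table gave an average log2 CPM of 4.98 and a log2 fold change of -0.67 (edgeR adjusted p = 0.00271). It gave -0.45 at 5.12 in brm (edgeR adjusted p = 0.142) and 0.03 at 5.44 in arp6 (edgeR adjusted p = 0.986) per the authors' deposited tables.

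PIF3, the first PIF found through its binding to phytochrome, was called in no comparison. It was lowly expressed, with a computed level of 7.97 CPM in WT, 9.29 in arp6, 14.7 in brm and, in the double mutant, 11.7, from the authors' deposited tables. Log2 fold changes per the authors' deposited tables were 0.22 in arp6 (average log2 CPM 1.52, edgeR adjusted p = 0.841), 0.89 in brm (1.80 and 0.103) and 0.53 in arp6;brm (1.54 and 0.246). The value in brm was as large as that of PHYA, which was called at a higher level.

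HY5 was called in no comparison and had the lowest average log2 CPM among the 10 genes, at 0.29 (arp6), 0.18 (brm) and 0.58 (arp6;brm) per the authors' deposited tables. Its log2 fold changes there were -0.41, -0.43 and 0.48 (edgeR adjusted p = 0.855, 0.886 and 0.588 per the authors' deposited tables). The computed level was 4.19 CPM in WT, 3.15 in arp6, 3.13 in brm and, in the double mutant, 5.91, from the authors' deposited tables. At so low a level, changes of this size did not pass the test.

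PORA, the enzyme that abounds in dark-grown seedlings and whose transcript falls in light, was higher in brm and arp6;brm. The level computed from the authors' deposited tables was 5.04 CPM in WT, 7.20 in arp6, 14.5 in brm and, in the double mutant, 20.9. The fold over WT was 2.89 in brm and 4.1 in arp6;brm, from the authors' deposited tables. These were log2 fold changes of 1.53 (average log2 CPM 1.59, edgeR adjusted p = 0.0191) and 2.04 (1.93 and 9.18e-07) per the authors' deposited tables. In arp6 PORA was not called (1.02, 0.51 and an edgeR adjusted p of 0.736 per the authors' deposited table). The mutants were not tested against each other.

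PORB and PORC, the POR enzymes that persist in green tissue, were called in no comparison. PORB had a computed level of 1156 CPM in WT, 928 in arp6, 1081 in brm and, in the double mutant, 1267, from the authors' deposited tables. Its log2 fold changes were -0.32, -0.10 and 0.11 at average log2 CPM of 8.43, 8.43 and 8.49 (edgeR adjusted p = 0.327, 0.817 and 0.734 per the authors' deposited tables). PORC stood at 489 CPM in WT, 494 in arp6, 345 in brm and, in the double mutant, 507, computed from the authors' deposited tables. Its log2 fold changes were 0.02, -0.50 and 0.03 at average log2 CPM of 7.35, 7.01 and 7.21 (edgeR adjusted p = 0.998, 0.0551 and 0.964 per the authors' deposited tables). In brm that p was 0.0389 when adjusted again with genes under an average log2 CPM of 1 left out.

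Reads could be shared with other genes. An annotated gene that overlaps PORB, AT4G27450, was higher in brm per the authors' deposited table (log2 fold change 1.68, edgeR adjusted p = 3.01e-06), while PORB was not. AT1G03620, which overlaps PORC, was near the lowest levels measured, and AT2G20170, which overlaps PIF1, was listed in no table. Whether the authors counted by strand, and how reads of the 3 similar POR genes were assigned, is not given in the sources used here.

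**Figure D2:**
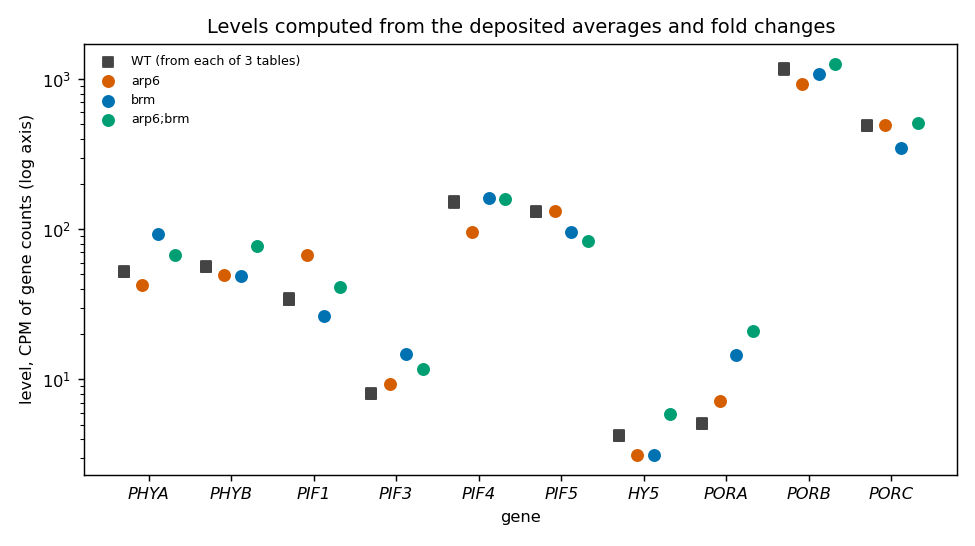
Levels of the 10 genes in CPM of gene counts (log axis), computed from the averages and fold changes per the authors' deposited tables, with the WT level from each of the 3 tables as squares and 1 point per mutant. Levels should be compared within a gene: PORA goes from 5.04 in WT to 20.9 in arp6;brm, and PIF1 from 34.0 to 67.4 in arp6.

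Other genes of the pathway were read from 4 lists, whose counts stand beside 6.03%, 13.8% and 13.3% of all genes called in arp6, brm and arp6;brm. Of 8 other phytochrome and PIF-family genes, none was called by edgeR in arp6 or brm (1 in each had an unadjusted p under 0.05) and 2 were higher in arp6;brm per the authors' deposited tables. These were PHYD, a close relative of PHYB (log2 fold change 0.92, edgeR adjusted p = 0.00488 per the authors' deposited table), and PIF7, a shade-response factor (0.67, edgeR adjusted p = 0.0119 per the authors' deposited table). All 8 genes lay above 0 in arp6;brm, with a median log2 fold change of 0.80 per the authors' deposited table, and 4 of them had an average log2 CPM above 2. The median was -0.03 in arp6 and 0.37 in brm per the authors' deposited tables.

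Among 18 light-signalling genes, 1 was lower in arp6, 4 were lower and 2 higher in brm, and 1 was higher in arp6;brm, per the authors' deposited tables. SPA1 and SPA3, partners of the COP1 ubiquitin ligase that marks HY5 for degradation, were lower in brm, at log2 fold changes of -0.61 and -1.02 (edgeR adjusted p = 0.0185 and 0.0105 per the authors' deposited table). SPA1 was also the gene that was lower in arp6 (-0.59, edgeR adjusted p = 0.0184 per the authors' deposited table). BBX21, which promotes HY5 action, was higher in brm (1.56, edgeR adjusted p = 7.25e-10) and in arp6;brm (0.73, 0.00168) per the authors' deposited tables. BBX24 and BBX25, which act against HY5, were lower in brm at -0.77 and -2.21 (edgeR adjusted p = 0.00111 and 4.5e-05 per the authors' deposited table). The blue-light receptor gene CRY2 was higher in brm at 0.67 (edgeR adjusted p = 0.00685 per the authors' deposited table). The called share of this list was 33.3% in brm and 5.56% in each of the other tables. The medians of the list were -0.17, 0.07 and 0.02 in arp6, brm and arp6;brm per the authors' deposited tables.

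Of 10 genes known to respond to PIFs or shade, 9 were listed in arp6 and 10 in the other tables, mostly at low levels. PRE1, a growth-promoting helix-loop-helix gene, was lower in arp6 (log2 fold change -2.06, edgeR adjusted p = 0.00308 per the authors' deposited table). IAA19, an auxin-response gene, and XTH15, a cell-wall enzyme gene, were higher in brm at 1.68 and 2.86 (edgeR adjusted p = 6.47e-05 and 0.000145 per the authors' deposited table). PAR2, a shade-response gene, was higher in arp6;brm at 1.50 with an edgeR adjusted p of 0.0498 per the authors' deposited table. The medians were -0.46, 1.55 and 0.13 per the authors' deposited tables, over genes whose average log2 CPM did not exceed 2.22.

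Of 26 genes of chlorophyll synthesis and its control, 8 were lower and 1 higher in brm, 2 were lower in arp6, and 2 were higher and 1 lower in arp6;brm, per the authors' deposited tables. The called share of the list was 34.6% in brm, while 7.69% (arp6) and 11.5% (arp6;brm) were close to the shares of all genes. In brm 23 of the 26 lay below 0, with a median log2 fold change of -0.46, against -0.02 in arp6 and 0.03 in arp6;brm, per the authors' deposited tables. GLK1 and GLK2, transcription factors of chloroplast genes, were lower in arp6 at -1.29 and -1.75 (edgeR adjusted p = 1.68e-10 and 1.79e-09 per the authors' deposited table). They were lower in brm at -0.66 and -1.77 (edgeR adjusted p = 0.00551 and 1.97e-06), and not called in arp6;brm at -0.47 and -0.47 (edgeR adjusted p = 0.0506 and 0.087), per the authors' deposited tables. In the single mutants both were lower, while arp6;brm was not tested against them.

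Enzyme genes lower in brm included HEMA1, the first committed enzyme of tetrapyrrole synthesis, at -0.83 (edgeR adjusted p = 0.00257 per the authors' deposited table). CHLH, a magnesium chelatase subunit, stood at -0.85 (edgeR adjusted p = 0.000211 per the authors' deposited table). CHLM, the methyltransferase after it, stood at -0.77 (edgeR adjusted p = 0.000794 per the authors' deposited table). CAO, which makes chlorophyllide b, stood at -0.98 (edgeR adjusted p = 0.000169 per the authors' deposited table). HEMA2, a second gene for the HEMA1 step, was the one higher in brm, at 0.91 (edgeR adjusted p = 0.000704 per the authors' deposited table). In arp6;brm HEMA1 was lower at -0.57 (edgeR adjusted p = 0.0293), while DVR, a reductase near PORs in the pathway, was higher at 0.65 (edgeR adjusted p = 0.000942), per the authors' deposited table. Of the shoot markers, RBCS1A and RCA were lower in brm as well, at -0.61 and -0.86 (edgeR adjusted p = 0.015 and 0.000374), and CAB1 was not called at 0.23 per the authors' deposited table. Their part in the lower chlorophyll genes was not tested.

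**Figure D3:**
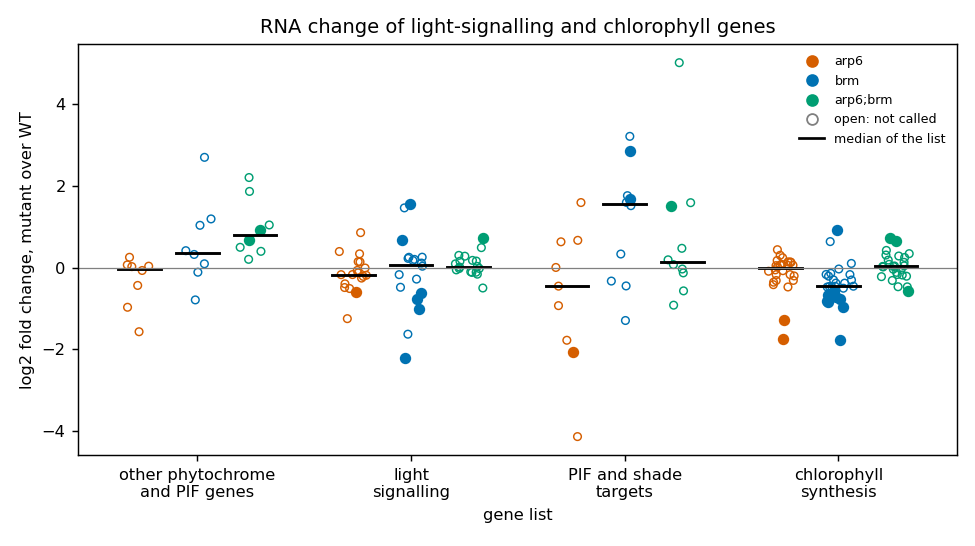
Log2 fold change, mutant over WT (vertical axis), of each gene in 4 lists of related genes, from the authors' deposited tables; filled points passed an adjusted p of 0.05 and bars mark each list's median. Chlorophyll-synthesis genes sit mostly below 0 in brm, where the median is -0.46.

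The MNase-seq tables were read at positions whose centre lay in a gene or within 500 bp of either end. A position was called changed at the authors' FDR under 0.05 provided that the summit signal differed 2-fold or more in either direction. In arp6, 15 of 237 positions at the 10 genes were called, 14 of them higher, beside 5.15% of 701877 positions genome-wide (1.06% higher) per the authors' deposited table. In brm, 9 of 243 were called, all higher, beside 4.18% of 702244 (2.53% higher) per the authors' deposited table. In arp6;brm, 8 of 237 were called, 6 higher, beside 4.68% of 703143 (1.93% higher) per the authors' deposited table. Over all positions the median summit log2 fold change was 0.16, 0.21 and 0.21 in the 3 mutants, against 0.02, 0.09 and 0.08 for the value at a single base, per the authors' deposited tables. At an FDR under 0.01, 0, 3 and 0 positions at the 10 genes were called in arp6, brm and arp6;brm. The share of all positions called at that FDR was not computed. With 1 pooled data set per genotype, these values have no replicate error.

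PIF1 held 11 of the 15 called positions in arp6, all higher, with FDR values from 0.0248 to 0.0441 per the authors' deposited table, so that none passed 0.01. Without PIF1, 4 of 214 positions were called, a count made after the values of PIF1 were seen. At the 23 positions of PIF1, the median single-base occupancy was 162 in WT and 370 in arp6, and the median log2 fold change was 1.04, per the authors' deposited table. Of these 23 positions, 22 lay above 0. The first called centre, at chr2:8703687, had a summit signal of 234 in WT and 634 in arp6 (FDR 0.0248), and the last, at chr2:8707272, had 162 and 394 (FDR 0.0344), per the authors' deposited table on TAIR10. In brm and arp6;brm the median log2 fold change at PIF1 was 0.11 and 0.14 per the authors' deposited tables. Among 25417 genes with at least 10 positions, PIF1 ranked 7 from the highest in arp6, which describes it after it was picked out and is no test.

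The higher MNase-seq signal in arp6 reached past the ends of PIF1. In bins of 1 kb whose centres ran from 5.5 kb before to 6.5 kb after the middle of the gene, the median log2 fold change was 0.42 to 1.29 in arp6. In the same bins it ran from -0.22 to 0.28 in brm and from -0.21 to 0.37 in arp6;brm. In the other bins within 20 kb, arp6 stayed between -0.59 and 0.28. Over the 5 kb centred on the gene the median was 1.02, with 29 of 30 positions above 0, against 0.03 from 15 to 5 kb before and -0.05 from 10 to 20 kb after. The stretch was delimited after its values were seen, and these medians of the authors' deposited log2 fold changes describe it without a test.

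RNA and MNase-seq at PIF1 stood side by side, with a computed RNA level of 67.4 CPM in arp6 against 34.0 in WT and a median occupancy of 370 against 162. AT2G20160, within the raised stretch, was listed in the arp6 table alone and was higher there at a very low level (average log2 CPM -2.22, edgeR adjusted p = 0.0172 per the authors' deposited table). AT2G20190, which starts near its higher-coordinate edge, was not called (log2 fold change -0.10, edgeR adjusted p = 0.870 per the authors' deposited table). Of the authors' 1545 deletions in arp6 DNA, none touched any of the 10 genes, the nearest to PIF1 lying 76.6 kb away and the nearest to any member 9.39 kb from PORA. MNase-seq signal counts DNA fragments, so that extra copies of the stretch in arp6 DNA and a higher occupancy by nucleosomes cannot be told apart in these tables. Gains of DNA were not analysed here, and whether extra copies bear on the signal or on the RNA level was not tested.

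**Figure D4:**
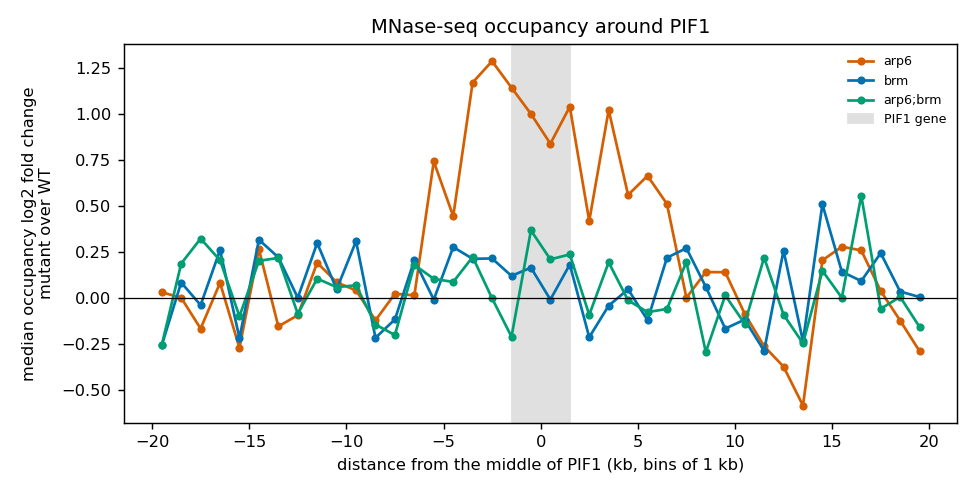
Median log2 fold change of single-base MNase-seq occupancy, mutant over WT (vertical axis), in bins of 1 kb by distance from the middle of PIF1 (horizontal axis, kb), from the authors' deposited tables, with the gene shaded. The arp6 line lies between 0.42 and 1.29 at bin centres from 5.5 kb before to 6.5 kb after the middle, and the brm and arp6;brm lines stay at or below 0.37 there.

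Outside PIF1, 4 of 214 positions were called in arp6, 8 of 220 in brm and 8 of 215 in arp6;brm. These were 1.87%, 3.64% and 3.72%, beside 5.15%, 4.18% and 4.68% of all positions, so none of the 3 counts exceeded the genome-wide share. With its flanks, PORB had a median log2 fold change of 0.39 in brm, the highest of the 10 genes in that mutant, per the authors' deposited table. Over the gene alone the median was 0.25, beside 0.24 at PHYA. Whether positions beside PORB belong to AT4G27450, which overlaps it and had higher RNA in brm, was not examined. In brm 4 of the 18 positions at PORB were called, all higher. Of these, 3 lay between chr4:13727582 and chr4:13727842 beside the gene, and the position at chr4:13727842 went from a summit signal of 126 in WT to 264 in brm (FDR 0.0271) per the authors' deposited table. The same position was called in arp6 (282, FDR 0.0498 per the authors' deposited table), as was chr4:13727682 (260 against 92 in WT, FDR 0.0384). In arp6;brm a position in that stretch, at chr4:13727602, was higher too (268 against 92, FDR 0.0218 per the authors' deposited table). PIF4 had a position at chr2:17887832 that was higher in both brm (216 against 64 in WT, FDR 0.00526) and arp6;brm (204 against 64, FDR 0.0236) per the authors' deposited tables. PHYB in arp6;brm had a higher position at chr2:8140232 (152 against 38, FDR 0.0235) and a lower one at chr2:8142242 (32 against 162, FDR 0.0197) per the authors' deposited table. PORA had 1 called position in brm, at chr5:21992222 (264 against 108, FDR 0.0128 per the authors' deposited table), and none in arp6;brm. PORC had no called position in any mutant.

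For H2A.Z, a list of peaks was deposited for each ChIP library, and a gene counted as marked when a peak covered at least 1 bp of it or of the 500 bp at either end. WT had peaks at 3 and 8 of the 10 genes in its replicates 1 and 2, arp6 at 1 and 0, and brm at 8 and 6. Over replicates these are 5.5 ± 3.54 genes in WT (SD, n = 2), 0.5 ± 0.707 in arp6 and 7 ± 1.41 in brm. With 2 libraries against 2, an exact two-sided permutation test cannot give a p below 0.333, so these counts are given as a description. Peaks were present in both replicates at 2 genes in WT, beside 38.2% of all 27444 protein-coding genes. They were present in both at 0 in arp6, beside 4.7%, and at 6 in brm, beside 51.8%. The 6 in brm include PIF5, with cover of a flank alone, and PORB, with cover of a flank alone in replicate 2. Counting only peaks that reach the gene itself, the numbers in both replicates were 2 in WT, 0 in arp6 and 4 in brm. The share of all genes was not computed for that count.

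Libraries stood apart in ways that bear on these counts. WT replicate 1 was called with a Poisson threshold, at 4-fold over input and 1-fold over the surroundings, whereas the other 5 lists used an FDR of 0.01 with 3-fold and 4-fold, per the file headers. Without WT replicate 1, the remaining WT library had a peak at 8 genes, and without arp6 replicate 2, the remaining arp6 library at 1. The arp6 libraries had 6.02% and 5.14% of tags in peaks and a fragment length of 164 bp, against 24.26% to 42.51% and 414 to 458 bp in WT and brm, per the file headers. The part of these differences in the low arp6 count was not tested, and genome-wide 13% and 14.2% of genes had a peak in arp6 against 42.2% to 65.8% in the other libraries.

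HY5 and PORA had a peak in both replicates of WT and brm and in neither of arp6. At HY5 the larger peak lay at chr5:3593959-3595110 in WT replicate 1 and chr5:3593861-3595083 in WT replicate 2, and peaks covered 58.9% to 63.6% of the gene with its flanks in the 4 libraries. PORA had 1 peak in each, at chr5:21992286-21992918 and chr5:21992442-21993067 in WT. In brm replicate 1 the PORA peak, chr5:21991000-21992929, covered 93% of the gene, against 25.2% in brm replicate 2 and 27.1% and 19.1% in WT. PORA RNA was higher in brm, where replicate 1 alone showed the longer peak, and a link between peak length and RNA was not tested.

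None of the other 8 members had a peak in both WT replicates. PHYB had a peak at its lower-coordinate end in WT replicate 2 (chr2:8139746-8140640) and in both brm libraries. PIF3 had one in WT replicate 2 (chr1:3076235-3077389), in both brm libraries and, as the only arp6 peak at the 10 genes, in arp6 replicate 1 (chr1:3076307-3076807). A further peak in WT replicate 2 (chr1:3079860-3080360) lay in the flank of PIF3 and did not reach the gene. PHYA was marked in WT replicate 2 and brm replicate 1 (chr1:3099704-3100598 and chr1:3099795-3100586). PIF1 was marked in WT replicate 2 alone (chr2:8705760-8706260) and PIF4 in brm replicate 1 alone (chr2:17886395-17886895). PORC had a peak in WT replicate 2 alone (chr1:905992-908325), over 41.7% of the gene with its flanks. At PIF5 29 to 55 bp of a flank were covered in WT replicate 2 and both brm libraries, and no peak reached the gene. PORB had a peak reaching the gene only in brm replicate 1 (chr4:13725436-13726370), beside peaks in its flank in WT replicate 1 and both brm libraries.

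**Figure D5:**
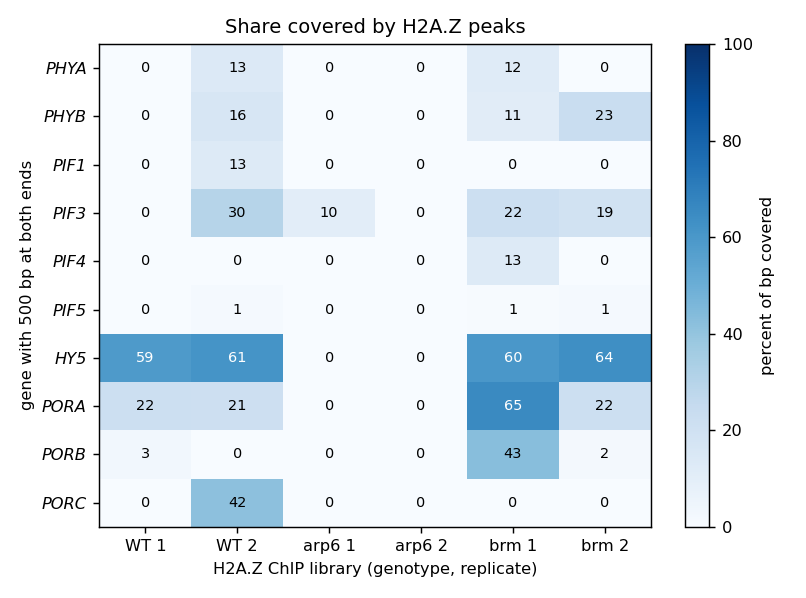
Percent of each gene with 500 bp at both ends that is covered by H2A.Z peaks (colour and number), for 6 ChIP libraries of WT, arp6 and brm. HY5 is covered at 58.9% to 63.6% in WT and brm, and the arp6 columns are at 0 except PIF3 in replicate 1.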

How the data were processed

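The 10 genes, the lists of related genes and the windows were chosen with earlier results of these data known. The authors deposited RNA-seq comparisons as log2 fold changes with an average log2 CPM, a p-value and an adjusted p-value for each gene. The authors used edgeR per the submitters' processing notes, which also name TopHat2, HTSeq, Bowtie2, SAMtools, BWA, HOMER and the build TAIR10 without versions. No depth per RNA library is known from them. Benjamini-Hochberg adjustment recomputed from the deposited p-values gave the deposited ones. Counter rows naming no gene (66.9%, 69.3% and 70.7% of counts) were left out. The 3 tables of nucleosome positions were deposited by the authors with an occupancy signal, log2 fold changes, FDR values and fuzziness scores, per the file headers. Fuzziness scores and their FDR were tabulated at the 10 genes and are not described in the text. Peak lists deposited by the authors hold positions with a score column that has 1 value throughout and was not used. Per the file headers they were called with HOMER in each library, from 5553946 to 15765419 tags.

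Genes were matched by locus name (84 of 84 list genes; 79 symbols stand there, and DVR is named PCB2) and placed with a RefSeq table of TAIR10.1, whose nuclear chromosomes were taken to share the TAIR10 coordinates of the files. Of WT replicate 2 peak centres, 60.1% lay within 500 bp of a gene end, against 39.7% to 41.4% after shifts of 2000 or 5000 bp. That table gives no strand, so the planned window from 500 bp before the start was replaced by 500 bp at both ends.

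All 10 genes were named. From each of the 4 lists, genes called in at least 1 table were named, at most 8 by smallest adjusted p. Other features singled out, among them PIF1 occupancy and its surroundings, AT2G20160, AT2G20190 and genes overlapping a member, were chosen after their values were seen. The planned permutation p for counts of members with an H2A.Z peak is not printed, since the members were chosen with results known. Replicates are biological per the labels. Calculations used pandas 2.3.3, scipy 1.17.1 and numpy 2.4.6 under Python 3.11.15, with matplotlib 3.10.9 for figures, and the counting steps were tested on simulated data.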

Additional observations from a re-analysis of the deposited data

How the results depend on the processing

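The RNA calls of the 10 genes were counted again under other thresholds. At an adjusted p under 0.01, 1 gene was called in arp6 and 1 in brm, with PIF4 in arp6 and PORA in brm lost. At 0.2, 5 were called in brm. When a fold of at least 2 was also asked, the calls were 0 (arp6), 1 (brm) and 1 (arp6;brm). Adjusting p-values again over gene rows changed no member's call, and doing so without genes of average log2 CPM under 1 added PORC in brm and PHYB in arp6;brm. At 0.01 the light-signalling list had 0 calls in arp6, and in arp6;brm the other phytochrome and PIF genes had 1, the PIF and shade targets 0 and the chlorophyll genes 1. The shares of all genes called under these other thresholds were not computed, so these counts have no background to be read against. 

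Among the 10 genes, positions called at an FDR under 0.01 numbered 0, 3 and 0 in the 3 tables (arp6, brm and arp6;brm). No share of all positions was computed at that FDR or in the other windows below. Chosen after seeing the data, windows of 500 bp around either gene end gave 5 in brm and 2 in arp6;brm, gene bodies alone 8 in arp6 and 4 in brm, and leaving out PIF1 gave 4 in arp6. The median log2 fold change of PIF1 at the summit was 1.20 (arp6), 0.23 (brm) and 0.37 (arp6;brm), with the sign it had at a single base. Leaving out 1 ChIP library in turn left a single library of that genotype, so the counts repeat those per library. They were 3 to 8 genes with an H2A.Z peak in WT, 0 to 1 in arp6 and 6 to 8 in brm. The value without WT replicate 1 was 8 and that without arp6 replicate 2 was 1. These ask for a peak in 1 library, whereas the counts of 2, 0 and 6 genes in WT, arp6 and brm ask for both replicates. With gene bodies alone, or with at least 200 bp covered, the counts in both replicates were 2, 0 and 4. The cause of the differences between libraries of a genotype, or between settings, was not tested. Windows at gene starts alone were not run, since strand is not given, and no RNA library was left out, since the tables hold no value per library.

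For H2A.Z, differences in members with a peak were also taken within library numbers, after seeing the data. Their mean was -5 for arp6 and 1.5 for brm. With a single library of each genotype per number, it equals the difference of group means by construction, so it is no check. The differences within numbers 1 and 2 were -2 and -8 for arp6, and 5 and -2 for brm. These libraries share a number in their titles and no stated batch. Within the RNA and MNase-seq data no paired analysis was possible, because those tables hold no value per library.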
